A study of Mus musculus with 12 samples.

Results

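Messenger RNA levels of 10 genes of the Notch pathway were followed in the mouse heart: the 4 receptors Notch1, Notch2, Notch3 and Notch4, the ligands Jag1 and Dll4, and the target genes Hes1, Hey1, Hey2 and Heyl. They were taken by gene symbol from a table of 53465 genes, each symbol matched 1 row, and all 10 were among the 16101 genes with enough counts to be tested. The RNA came from left ventricular tissue, with 3 libraries in each of 4 groups. Mice homozygous for a floxed Adam17 allele (A17fl/fl) were compared with littermates in which Cre driven by the α-MHC promoter, which is active in cardiomyocytes, excised exon 2 of the same allele (A17α-MHCKO), so the floxed allele was shared by every group. Each genotype received either doxorubicin (DOX), as 4 intraperitoneal injections of 5 mg/kg between day 0 and day 21 to a total of 20 mg/kg, or an equal volume of normal saline (NS), and hearts were collected about a month after the last injection from these male mice, which were 8 weeks old at the start.

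Notch receptors sit on the cell surface and are activated by Delta-like and Jagged ligands on a neighbouring cell. Ligand binding exposes the receptor to a metalloprotease of the ADAM family, and γ-secretase then frees the intracellular part, which joins the DNA-binding protein RBPJ and Mastermind coactivators in the nucleus and turns on genes of the Hes and Hey families, themselves transcriptional repressors. ADAM10 is the usual ligand-dependent protease and ADAM17 can cut Notch in some settings, which links the pathway to the targeted gene. In the adult heart, Notch1, Notch4 and Dll4 are known mainly from endothelium, Notch3 and Heyl from the mural cells of vessels, and Hey2 from ventricular muscle and arteries. The libraries are bulk tissue, in which fewer cells of a type and less RNA per cell cannot be told apart, and processing of the receptor protein is not measured.

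Library totals ran from 15950717 to 21725076 counts. Values below are CPM, the counts scaled to library size with TMM factors, unless FPKM is named. FPKM are the deposited values, counts divided by library total and by the gene length the authors used. The cardiomyocyte markers summed to between 17918 and 47378 CPM over the 12 libraries. The lowest of these sums belonged to A17fl/fl + NS replicate 1, which stood apart: its score on the first principal component, holding 35.2% of the variance, was 120.2 against -28.4 to 12.9 in the other 11, and its 8 neutrophil markers summed to 2753 CPM against 6.28 to 69.2. Adam17, the targeted gene, was at 70.9, 48.7 and 43.6 CPM in A17fl/fl + NS, 48.1, 53.2 and 48.4 in A17fl/fl + DOX, 35.3, 34.9 and 34.2 in A17α-MHCKO + NS and 27.9, 36.8 and 32.2 in A17α-MHCKO + DOX. All 6 knockout libraries lay below all 6 floxed ones, with a mean difference of -35.7% (p = 0.0022 in a two-sided exact permutation test, which cannot go lower with 6 against 6); the count covers the whole gene, including exons outside the deletion and cells without Cre.

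By the deposited FPKM and over all libraries, Notch3 had the highest level of the 10 genes and Hey2 the lowest. This order depends on the gene lengths the authors used. Over the 12 libraries the mean FPKM was 11.96 ± 2.7 (SD, n = 12) for Notch3, 9.31 ± 2.7 for Dll4, 9.27 ± 2.2 for Hes1, 8.14 ± 2.1 for Heyl and 6.64 ± 1.1 for Notch1. The lower part of the order held Notch4 at 5.13 ± 1.4, Hey1 at 4.63 ± 1.4, Jag1 at 3.90 ± 0.85, Notch2 at 3.33 ± 0.95 and Hey2 at 1.19 ± 0.26 FPKM. The ranges of neighbours in this order overlapped for every pair but the last: Notch2 was above Hey2 in 12 of 12 libraries, and its lowest FPKM, 1.85, exceeded the highest of Hey2, 1.78. Dll4 and Hes1 had no order between them, with Dll4 the higher in 4 of 12 libraries. By group means Notch3 came first except in A17α-MHCKO + NS, where Hes1 was above it, Notch2 and Hey2 came last in every group, while Heyl stood just under Notch4 in A17fl/fl + NS, under Notch3 in A17fl/fl + DOX and A17α-MHCKO + NS, and under Dll4 in A17α-MHCKO + DOX. Deposited counts behind these levels ran from 75 for Hey2 in its lowest library to 2419 for Notch3 in its highest.

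**Figure D1:**
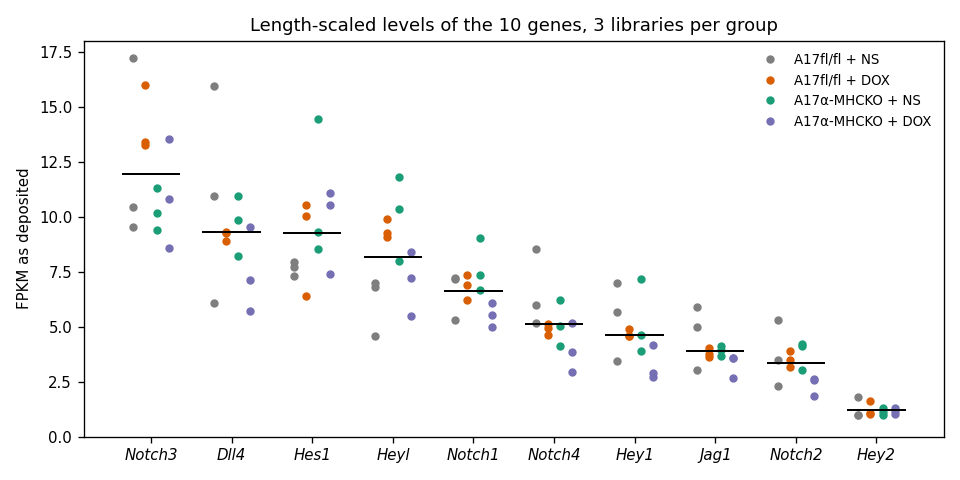
FPKM as deposited (vertical axis) for the 10 genes, ordered from left to right by the mean over 12 libraries (black line); each point is 1 library, coloured by group. The points of neighbouring genes overlap until Notch2 and Hey2, whose means are 3.33 and 1.19 FPKM.

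RBPJ binds a short core, and the start regions of the genes were read for it because Hey genes are its classical targets. The promoter windows of RefSeq (GRCm38.p6), 250 bases before to 50 after the start, held 7 of the 10 genes: the 4 receptors, both ligands and Hey2. The file of counts carries no coordinates, and the submitters' processing notes name GRCm39, so positions here belong to GRCm38.p6 only. The core TGGGAA, on either strand, was present in 25.6% of all 32851 windows, and among the 7 only in Hey2, in 2 copies. Both copies lie inside the longer CGTGGGAA, which 0.734% of windows held at least once and 4 windows held 2 or more times. The Hey2 window is shown because it alone carries the motif; it is on the minus strand of chromosome 10, chr10:30842781-30843033, and runs from 250 bases before the start to 3 bases into the transcript. Capitals mark the motif, the first copy reading on the opposite strand and the second on the strand of the gene across the start.
Hey2: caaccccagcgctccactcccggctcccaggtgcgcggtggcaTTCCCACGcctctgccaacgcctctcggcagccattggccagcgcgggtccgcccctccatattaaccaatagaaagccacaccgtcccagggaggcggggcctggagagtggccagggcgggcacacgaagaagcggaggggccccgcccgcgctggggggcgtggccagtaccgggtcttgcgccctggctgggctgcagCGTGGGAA
The 6 other windows lacked these letters. A match is a description of the sequence and not of binding, and Hey2 itself was the member with the lowest counts.

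No receptor, ligand or target passed an adjusted p of 0.05 (edgeR quasi-likelihood test, Benjamini-Hochberg over 16101 genes) in any of the 7 comparisons made. The smallest adjusted p among the 10 was 0.352. Calls were equally scarce elsewhere: adjusted calls made up 0.0% of all genes for doxorubicin in A17fl/fl, in A17α-MHCKO and over both genotypes, 0.0% for the interaction, 0.0186% for genotype after saline, 0.00621% for genotype after doxorubicin and 0.0248% for genotype over both treatments. The study's own limits (absolute log2 fold change over 1, unadjusted p under 0.05, mean FPKM over 1 in a group) took in 2.82% of genes for doxorubicin in A17fl/fl and 0.205% for genotype after doxorubicin, and 0 of the 10. At an unadjusted p under 0.05, Heyl passed in 3 comparisons and Notch2 in 2; the sections on these genes give the values. The groups are described as mice, but no label ties a library to an animal, so p-values measure only the spread between these libraries, which may be technical.

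The 10 genes were mostly on the lower side in A17α-MHCKO + DOX. Relative to A17fl/fl + DOX, 9 of 10 had a negative log2 difference in A17α-MHCKO + DOX, with a median of -0.26, against a median of 0.01 over all tested genes, of which 48.9% were negative. Relative to A17α-MHCKO + NS, 8 of 10 were negative in A17α-MHCKO + DOX, with a median of -0.29 against 0.00 over all genes, of which 49.5% were negative. In A17fl/fl, doxorubicin gave 6 negative values of 10, against 55.5% of all genes, and a median of -0.06 against -0.04. After saline, the knockout gave 7 negative values of 10, against 54.5% of all genes, and a median of -0.18 against -0.03. These comparisons share groups, so the counts are not separate evidence. Markers of other cells and tissues had negative values in the same comparisons, and their part in these medians was not tested. For doxorubicin in the knockout, the negative markers were 7 of 7 of mesothelium (median log2 difference -2.50), 7 of 7 of atrium (-1.62), 8 of 8 of fibroblasts (-0.40), 11 of 15 of endothelium (-0.17) and 7 of 10 of mural cells (-0.16), whereas 2 of 10 cardiomyocyte markers were negative (0.35). Negative too were 6 of 8 arterial (-0.16), 5 of 8 macrophage (-0.07) and 4 of 5 tested adipocyte markers (-0.85). Of 7 tested neutrophil markers, 0 were negative (1.13). For genotype after doxorubicin they were 7 of 7 of mesothelium (-1.39) and 7 of 7 of atrium (-0.46). They were also 6 of 8 arterial (-0.22), 6 of 8 fibroblast (-0.20) and 10 of 15 endothelial markers (-0.09). Among the remaining lists, 4 of 5 tested adipocyte (-0.46), 6 of 8 macrophage (-0.15) and 6 of 10 mural cell markers (-0.01) were negative. In this comparison 6 of 10 cardiomyocyte markers were negative as well (-0.14), whereas 0 of 7 tested neutrophil markers were (0.999). The knockout group after doxorubicin included the library with the lowest value of 6 of the 10 genes, replicate 1, which held the lowest or highest value for 26.5% of all tested genes.

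**Figure D2:**
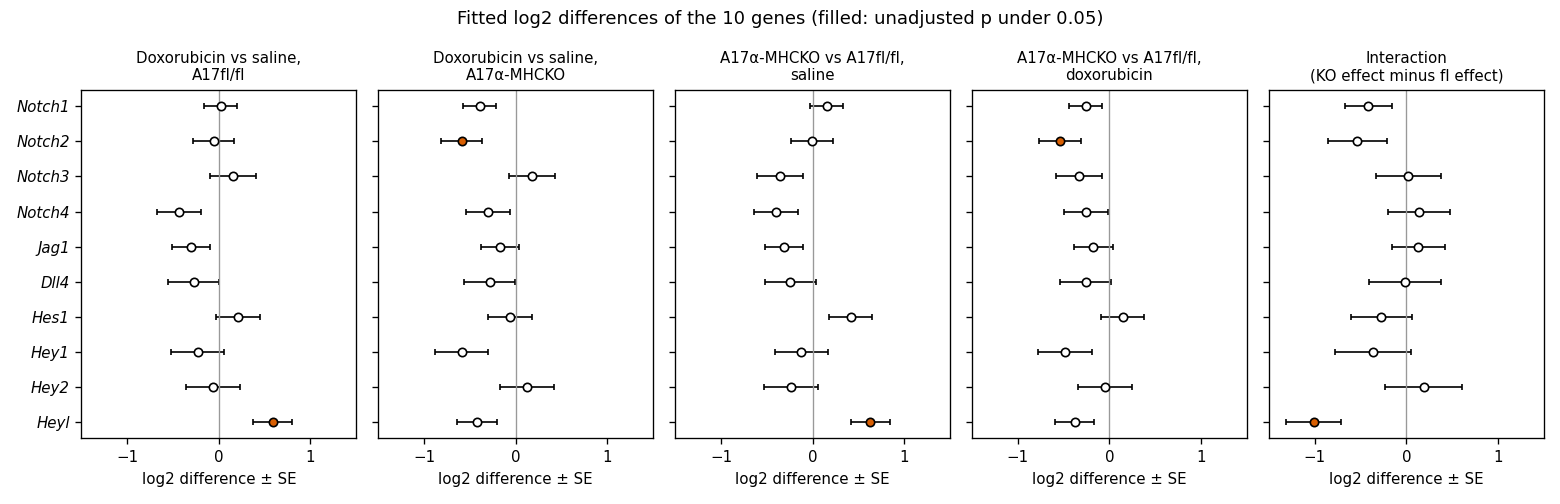
Log2 difference with its standard error (horizontal axis) for each of the 10 genes in 4 pairwise comparisons and in the interaction, the doxorubicin effect in A17α-MHCKO minus that in A17fl/fl; filled points have an unadjusted p under 0.05 and none passed after adjustment. Heyl is filled on the right of 0 in A17fl/fl after doxorubicin and in the knockout after saline, and reaches -1.01 in the interaction.

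Of the receptors, Notch2 had its lowest group mean where ADAM17 loss and doxorubicin were combined, as did Notch1 and Notch4. Notch2 (ENSMUSG00000027878, chromosome 3), a widely expressed receptor, was at 56.0, 38.8 and 28.1 CPM in A17fl/fl + NS and at 39.4, 35.6 and 43.3 in A17fl/fl + DOX. The knockout hearts had 35.6, 43.2 and 43.6 CPM after saline and 21.4, 30.5 and 29.3 after doxorubicin. The 3 knockout libraries after doxorubicin thus lay below all 3 of A17α-MHCKO + NS and all 3 of A17fl/fl + DOX, but overlapped A17fl/fl + NS, which ran from 28.1 to 56.0. The log2 difference was -0.59 (SE 0.23) for doxorubicin in A17α-MHCKO, with an unadjusted p of 0.0246 and an adjusted p of 0.739. For the knockout against A17fl/fl after doxorubicin it was -0.54 (SE 0.23), unadjusted p 0.0367 and adjusted p 0.9998 in edgeR. In A17fl/fl the doxorubicin difference was -0.06 (SE 0.23), and the test of the difference between genotypes gave -0.53 (SE 0.32, unadjusted p = 0.124), so an effect particular to the knockout was not shown. Leaving out A17α-MHCKO + DOX replicate 1, the lowest library, gave -0.45 (unadjusted p = 0.0989, edgeR) for doxorubicin in the knockout and -0.40 for genotype after doxorubicin. The first of these Notch2 differences also lost its unadjusted call without A17α-MHCKO + NS replicate 2 (-0.55) or 3 (-0.55), and the second without A17fl/fl + DOX replicate 1 (-0.54) or 3 (-0.47) or A17α-MHCKO + DOX replicate 3 (-0.60).

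Notch1 (ENSMUSG00000026923, chromosome 2), the main endothelial receptor, had its lowest group mean in the same hearts. It was at 79.2, 113.5 and 125.2 CPM in A17fl/fl + NS and 116.6, 97.8 and 108.3 in A17fl/fl + DOX. In the knockout it was at 121.9, 99.0 and 132.5 CPM after saline and 81.4, 99.4 and 88.3 after doxorubicin. These last 2 groups overlapped by a single library, and the log2 difference between them was -0.39 (SE 0.18, unadjusted p = 0.0526, adjusted p = 0.784, edgeR). In A17fl/fl the difference was 0.02 (SE 0.18).

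Notch3 (ENSMUSG00000038146, chromosome 17), the mural cell receptor, passed no unadjusted p of 0.05, and its differences moved with the choice of control libraries. It was at 79.6, 76.4 and 151.5 CPM in A17fl/fl + NS and 108.3, 106.4 and 127.8 in A17fl/fl + DOX, against 78.8, 85.5 and 76.0 in A17α-MHCKO + NS and 71.1, 112.7 and 87.7 in A17α-MHCKO + DOX. Over both treatments the mean difference was -21.3%, a log2 difference of -0.35 (SE 0.18, unadjusted p = 0.0792, edgeR). The groups overlapped in all 4 pairwise comparisons. Without A17fl/fl + NS replicate 3, the highest library, that genotype difference was -0.15, the one after saline was 0.04 in place of -0.36, and Notch3 was on the higher side with doxorubicin, by 0.55 on the log2 scale in A17fl/fl (unadjusted p = 0.0145, adjusted p = 0.224, edgeR) and 0.36 over both genotypes (unadjusted p = 0.0149, adjusted p = 0.265, edgeR). Without replicate 1 or 2 of that group, the Notch3 genotype difference over both treatments was -0.42 (unadjusted p = 0.0310, adjusted p = 0.446, edgeR) or -0.43 (unadjusted p = 0.0312, adjusted p = 0.318, edgeR).

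Notch4 (ENSMUSG00000015468, chromosome 17), an endothelial receptor, was on the lower side for both factors. Its values were 98.2, 62.7 and 79.9 CPM in A17fl/fl + NS, 62.8, 59.8 and 55.7 in A17fl/fl + DOX, 79.1, 47.2 and 57.0 in A17α-MHCKO + NS and 36.8, 48.5 and 63.7 in A17α-MHCKO + DOX. The floxed groups came within 0.1 CPM of separating (62.7 against 62.8). Over both genotypes the doxorubicin difference was -0.37 (SE 0.17, unadjusted p = 0.0533, adjusted p = 0.471, edgeR), a mean difference of -22.8%, with an exact permutation p of 0.0952 (two-sided, 6 against 6). Over both treatments the knockout difference was -0.33 (SE 0.17, unadjusted p = 0.0792, edgeR).

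**Figure D3:**
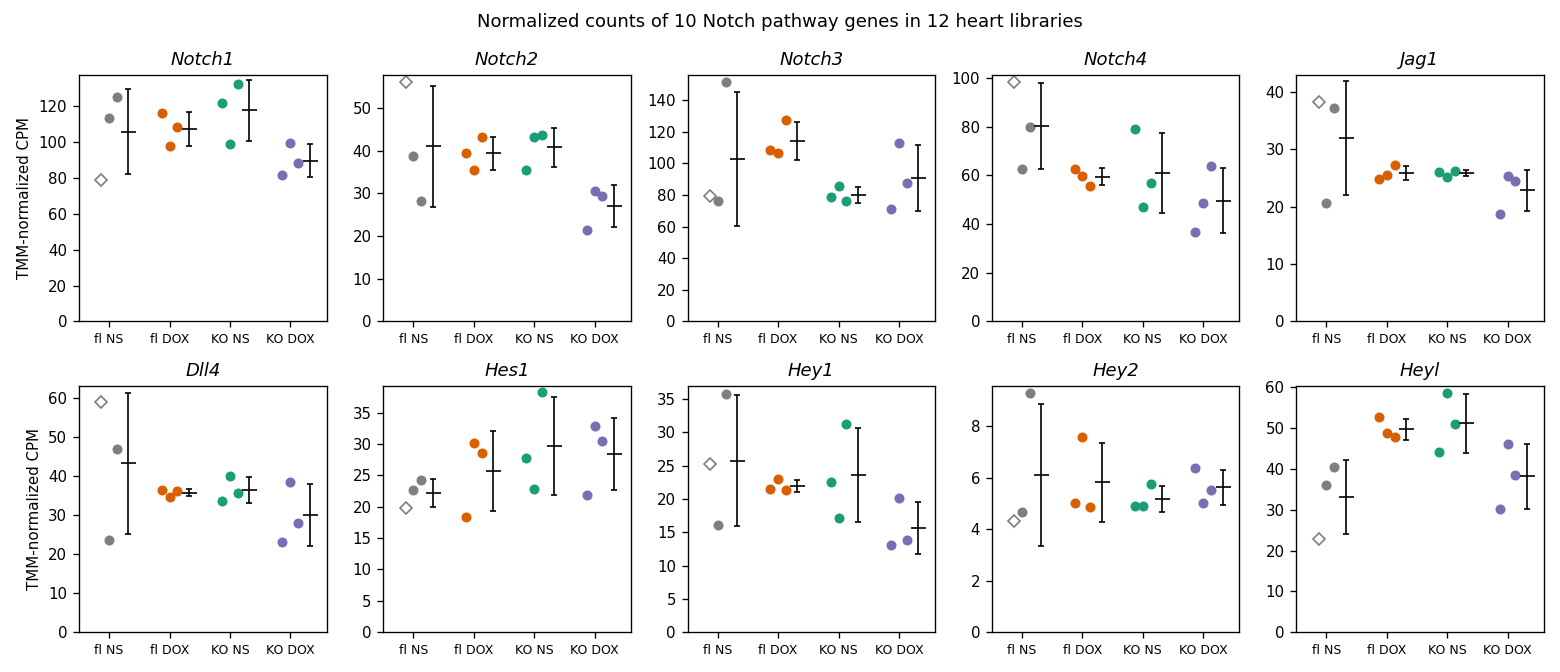
TMM-normalized CPM (vertical axis, from 0) of the 10 genes in A17fl/fl (fl) and A17α-MHCKO (KO) hearts after saline or doxorubicin; points are libraries, the open diamond is A17fl/fl + NS replicate 1, and bars are the mean ± SD of 3. Heyl is lower in A17fl/fl + NS (22.9 to 40.5) than in A17fl/fl + DOX (47.8 to 52.7), and Notch2 is lowest in A17α-MHCKO + DOX (21.4 to 30.5).

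The 2 ligands varied together between libraries, and most widely within A17fl/fl + NS. Dll4 (ENSMUSG00000027314, chromosome 2), the Delta-like ligand of arterial and capillary endothelium, was at 59.2, 23.7 and 47.0 CPM in A17fl/fl + NS, 36.5, 34.8 and 36.2 in A17fl/fl + DOX, 33.6, 40.2 and 35.7 in A17α-MHCKO + NS and 23.1, 38.7 and 28.1 in A17α-MHCKO + DOX. Jag1 (ENSMUSG00000027276, chromosome 2), the Jagged ligand of endothelium and smooth muscle, was at 38.2, 20.6 and 37.1 CPM in A17fl/fl + NS, 24.8, 25.5 and 27.2 in A17fl/fl + DOX, 26.1, 25.2 and 26.2 in A17α-MHCKO + NS and 18.8, 25.3 and 24.5 in A17α-MHCKO + DOX. For both, the saline floxed group held the highest value of all 12 libraries, in replicate 1, and a value near the bottom, in replicate 2. Its SD was 18 CPM for Dll4 and 9.8 CPM for Jag1, against 0.94 and 1.2 CPM in A17fl/fl + DOX. No doxorubicin or genotype difference of either ligand reached an unadjusted p of 0.05; the doxorubicin difference over both genotypes was -0.28 (SE 0.20) for Dll4 and -0.24 (SE 0.15) for Jag1. Without A17fl/fl + NS replicate 2, both ligands and Notch4 passed an unadjusted p of 0.05 on the lower side for doxorubicin in A17fl/fl, so that with Heyl the count was 4 of 10, whereas without replicate 1 the Dll4 difference was 0.01 and the count was 0 of 10. Over all genes these omissions gave 3422 calls of 16445 and 1678 of 16406, against 1721 of 16101 with every library. The direction of Dll4 in A17fl/fl therefore rested on 1 control library.

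Among the targets, only Heyl had an unadjusted p under 0.05 (edgeR) in any of the 7 comparisons, and none passed adjustment. Its doxorubicin differences had opposite signs in the 2 genotypes, higher in A17fl/fl and lower in the knockout. Heyl (ENSMUSG00000032744, chromosome 4) encodes a Hey-family repressor induced by Notch in vascular smooth muscle cells. It was at 22.9, 36.0 and 40.5 CPM in A17fl/fl + NS and at 52.7, 48.9 and 47.8 in A17fl/fl + DOX. In the knockout it was at 44.2, 58.6 and 50.9 CPM after saline and 30.1, 46.0 and 38.6 after doxorubicin. The 3 saline floxed libraries lay below all libraries of A17fl/fl + DOX and of A17α-MHCKO + NS, A17α-MHCKO + DOX lay below A17fl/fl + DOX, and the 2 knockout groups overlapped (46.0 after doxorubicin against 44.2 after saline). The level was therefore low in A17fl/fl + NS (33.1 ± 9.1) and A17α-MHCKO + DOX (38.2 ± 8.0), and high in A17fl/fl + DOX (49.8 ± 2.6) and A17α-MHCKO + NS (51.3 ± 7.2, mean ± SD CPM, n = 3 each).

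The mean of Heyl was 50.3% higher after doxorubicin in A17fl/fl, a log2 difference of 0.59 (SE 0.21, unadjusted p = 0.0186, adjusted p = 0.414, edgeR). After saline it was 54.8% higher in the knockout, 0.63 on the log2 scale (SE 0.21, unadjusted p = 0.0130, adjusted p = 0.352, edgeR). In the knockout the doxorubicin difference was -0.42 (SE 0.21, unadjusted p = 0.0725, edgeR), and after doxorubicin the knockout difference was -0.38 (SE 0.21, unadjusted p = 0.102, edgeR). The interaction, a direct test of whether doxorubicin acted differently in the 2 genotypes, was -1.01 on the log2 scale (SE 0.30, unadjusted p = 0.00632) and did not pass adjustment over all genes (adjusted p = 0.828, edgeR), where 5.99% of genes had an unadjusted p under 0.05. Averaged over the other factor, Heyl differed by 0.08 (SE 0.15) for doxorubicin and 0.13 (SE 0.15) for genotype. Leaving out A17fl/fl + NS replicate 1 ended the unadjusted call for doxorubicin in A17fl/fl, where Heyl then differed by 0.38 (unadjusted p = 0.0546, adjusted p = 0.498, edgeR), as did leaving out A17fl/fl + DOX replicate 1, with 0.55. The genotype difference after saline was then 0.42 (unadjusted p = 0.0349, adjusted p = 0.447, edgeR) without the control library, and the interaction -0.80 (unadjusted p = 0.00568, adjusted p = 0.523, edgeR). Without that control library, Heyl passed an unadjusted p of 0.05 (edgeR) on the lower side for doxorubicin in the knockout. It did so for genotype after doxorubicin as well. Each of these 2 calls was made in 5 of 21 alternatives. The others were voom, the replicate block, the 2 groups alone and leaving out A17α-MHCKO + DOX replicate 2. In these others Heyl also kept its unadjusted call for doxorubicin in A17fl/fl. The comparisons in which Heyl passed thus depended on the libraries and the method used.

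Markers of several cell types shared the signs of Heyl in all 4 pairwise comparisons, as did 13.6% of all tested genes, and their part in the Heyl result was not tested. These signs were held by 4 of 5 tested adipocyte markers, 6 of 15 endothelial, 3 of 8 arterial, 2 of 7 atrial, 2 of 8 fibroblast and 1 of 10 mural cell markers, and by none of the 10 cardiomyocyte and 7 mesothelial markers. Among the other pathway genes they were held by 6 of 17 regulators, 3 of 15 processing genes and 3 of 22 nuclear components. None of the 2 tested other ligands and 2 tested other targets held them. Of the 10 members, 2 held them, Heyl itself and Notch1. The list of 8 arterial markers had a median interaction of -0.47 on the log2 scale, 7 of 8 negative, and the list of 15 general endothelial markers one of -0.29, 11 of 15 negative, against 0.06 over all tested genes, of which 43.7% were negative. The 10 mural cell markers had a median of -0.03, with 5 of 10 negative. Summed arterial markers ran from 304 to 399 CPM in A17fl/fl + NS, 419 to 449 in A17fl/fl + DOX, 397 to 441 in A17α-MHCKO + NS and 309 to 430 in A17α-MHCKO + DOX. The floxed groups did not overlap on this sum, like Heyl. Unlike Heyl, the sum overlapped between genotypes after saline (up to 399 in A17fl/fl, from 397 in the knockout). It also overlapped after doxorubicin (from 419 in A17fl/fl, up to 430 in the knockout).

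Markers of neighbouring tissue were also on the negative side of the interaction. The 7 atrial markers were negative in the interaction 7 of 7 times, with a median of -1.47, and their sum ran from 367 to 7783 CPM in A17fl/fl + NS, 1854 to 5016 in A17fl/fl + DOX, 4066 to 8795 in A17α-MHCKO + NS and 1900 to 4160 in A17α-MHCKO + DOX. The tissue is described as left ventricle, and A17fl/fl + NS alone held both the lowest of these sums and one of the highest. The 7 mesothelial markers were negative 7 of 7 times, with a median of -1.22, and summed to between 5.83 and 141 CPM in A17fl/fl + NS, 20.4 and 41.8 in A17fl/fl + DOX, 15.7 and 85.9 in A17α-MHCKO + NS and 3.97 and 23.2 in A17α-MHCKO + DOX. Of 6 adipocyte markers, 5 were tested and 4 of these were negative, with a median of -1.85, but their sum did not follow these signs, at 437 to 861 CPM in A17fl/fl + NS, 672 to 708 in A17fl/fl + DOX, 574 to 808 in A17α-MHCKO + NS and 819 to 1121 in A17α-MHCKO + DOX. The share of these RNAs in the Heyl values was not tested.

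**Figure D4:**
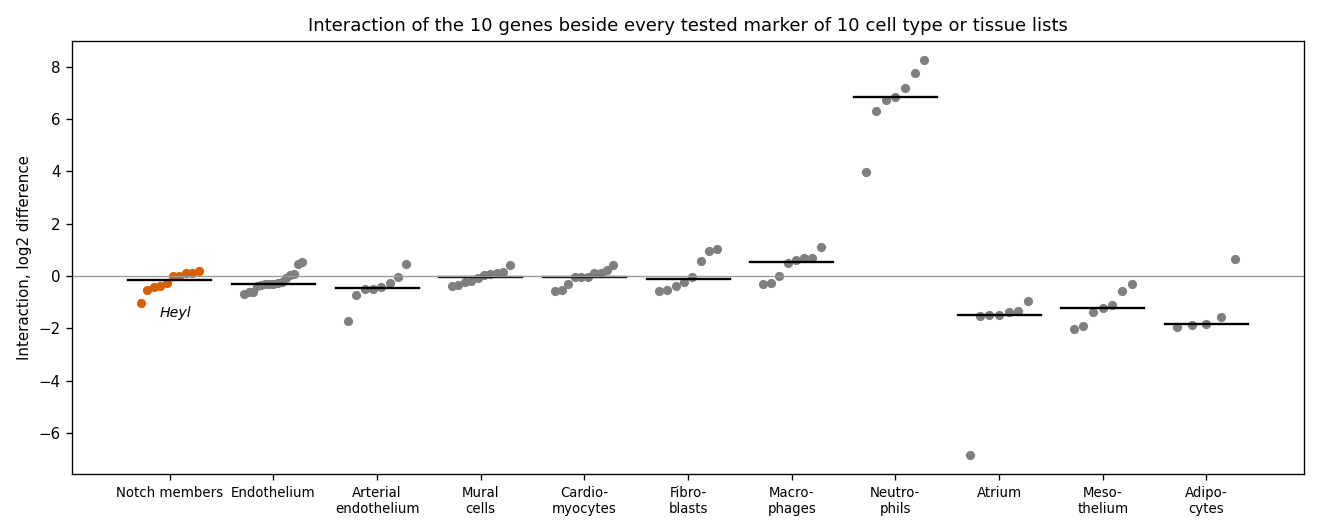
Interaction on the log2 scale (vertical axis) of the 10 Notch genes (orange) and of every tested marker of 10 cell type or tissue lists (grey), each point being 1 gene and each black line the median of its list. Heyl, at -1.01, is the lowest of the 10; the medians of the atrial (-1.47), mesothelial (-1.22) and adipocyte (-1.85) lists lie below it, and that of the 7 tested neutrophil markers, which were high in A17fl/fl + NS replicate 1, is 6.86.

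Hey1 (ENSMUSG00000040289, chromosome 3), a Hey gene active in endothelium, was lowest in A17α-MHCKO + DOX. It was at 25.2, 16.2 and 35.8 CPM in A17fl/fl + NS, 21.6, 23.0 and 21.4 in A17fl/fl + DOX, 22.6, 17.2 and 31.2 in A17α-MHCKO + NS and 13.1, 20.2 and 13.8 in A17α-MHCKO + DOX. After doxorubicin the knockout libraries lay below all 3 floxed ones, with a mean difference of -28.5%, but the log2 difference of -0.49 (SE 0.29) had an unadjusted p of 0.124 in the edgeR fit. With only these 2 groups in the fit, Hey1 passed an unadjusted p of 0.05, the 1 of 21 alternatives in which it did for this comparison. For doxorubicin in the knockout the Hey1 difference was -0.59 (SE 0.29, unadjusted p = 0.0670, edgeR), and leaving out 1 library moved it from -0.35, without A17α-MHCKO + NS replicate 3, to -0.81, without A17α-MHCKO + DOX replicate 2. For doxorubicin in the knockout, Hey1 had an unadjusted p under 0.05 in 6 of 21 alternatives.

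The other 2 targets, Hes1 and Hey2, had no unadjusted p under 0.05 in the 7 comparisons. Hes1 (ENSMUSG00000022528, chromosome 16), the repressor used by Notch in many tissues and by other pathways as well, was at 19.8, 22.6 and 24.2 CPM in A17fl/fl + NS, 18.4, 30.1 and 28.5 in A17fl/fl + DOX, 27.8, 22.9 and 38.3 in A17α-MHCKO + NS and 21.9, 32.8 and 30.4 in A17α-MHCKO + DOX. Its largest difference was that of genotype after saline, 0.42 (SE 0.24, unadjusted p = 0.105, edgeR), which was 0.59 (unadjusted p = 0.0380, adjusted p = 0.590, edgeR) without A17α-MHCKO + NS replicate 2 and 0.20 without replicate 3. Hes1 was the single member on the higher side in the knockout after doxorubicin, by 0.14 (SE 0.24), and over both treatments the knockout difference was 0.28 (SE 0.17, unadjusted p = 0.121, edgeR). Hey2 (ENSMUSG00000019789, chromosome 10), the ventricular Hey gene, was at 4.33, 4.67 and 9.27 CPM in A17fl/fl + NS, 5.03, 7.57 and 4.85 in A17fl/fl + DOX, 4.88, 4.88 and 5.75 in A17α-MHCKO + NS and 6.36, 5.00 and 5.53 in A17α-MHCKO + DOX. Its log2 differences lay within -0.23 and 0.12 in the 4 pairwise comparisons, each with an SE of 0.30.

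Pairs of groups whose libraries did not overlap were counted for the 10 genes and for the whole table. For doxorubicin in A17fl/fl it was 1 of 10 (Heyl) against 13.3% of all tested genes, for doxorubicin in A17α-MHCKO 1 of 10 (Notch2) against 16.9%, and for genotype after saline 1 of 10 (Heyl) against 10.9%. For genotype after doxorubicin it was 3 of 10 (Notch2, Hey1 and Heyl, all lower in the knockout) against 14.1%. Counts at an unadjusted p under 0.05 were 1 of 10 in each of these comparisons, against 10.7%, 6.42%, 10.1% and 2.7% of all genes in the same order. They were 1 of 10 for the interaction against 5.99%, 0 of 10 for doxorubicin over both genotypes against 10.7%, and 0 of 10 for genotype over both treatments against 6.65%. With 3 libraries against 3, an exact permutation test cannot give a p below 0.10, and each of the 6 non-overlapping pairs had that value. Standard errors of the 10 genes ran from 0.18 to 0.30 on the log2 scale in the pairwise comparisons.

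The 10 genes varied together to different degrees. Over the 11 libraries without A17fl/fl + NS replicate 1, 42 of the 45 pairs had a positive Pearson's r of log2 CPM, with a median of 0.36, and 8 pairs were over 0.7. The highest were Jag1 with Dll4 (0.88), Jag1 with Hey1 (0.82) and Notch1 with Hey1 (0.82), followed by Notch2 with Heyl (0.78). The highest r of Hes1 with another member was 0.30, with Hey1 (0.39, with Heyl, over 12 libraries), and the lowest r was that of Notch2 with Hey2 (-0.48). With all 12 libraries, Jag1 with Dll4 stayed at 0.92, while Notch2 with Heyl was 0.06 and Dll4 with Heyl was -0.05 in place of 0.72. These values describe libraries that share groups, depth and tissue make-up, and the single library left out was the highest or the lowest of the 12 for 7 of the 10 genes, against 51.6% of all tested genes: highest for Notch2, Notch4, Jag1 and Dll4 and lowest for Notch1, Hey2 and Heyl.

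**Figure D5:**
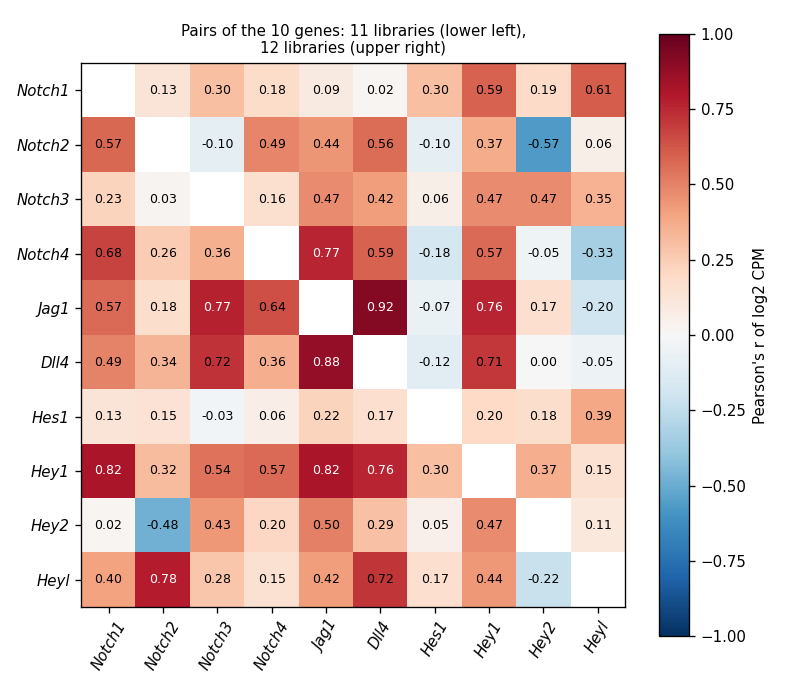
Pearson's r of log2 CPM for the 45 pairs of the 10 genes, over the 11 libraries without A17fl/fl + NS replicate 1 (lower left) and over all 12 (upper right). The pair Jag1 and Dll4 is the darkest in both (0.88 and 0.92), and the row of Heyl changes sign with Notch4, Jag1, Dll4 and Hey2 when the library is added.

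The genes most like each member were sought among 14460 genes with a mean over 1 CPM, over the same 11 libraries. Dll4 was closest to Kcp (r = 0.97) and to the zinc finger gene Zfp366 (0.96), although with all 12 libraries these were 0.25 and 0.45. Notch1 was closest to Kmt2a (0.94) and Son (0.93), and kept 0.94 and 0.95 over 12. Notch2 was closest to the collagen receptor gene Ddr1 (0.96, and 0.69 over 12) and to C77080 (0.92, and 0.81 over 12). Notch3 was closest to Dnajc16 (0.93, and 0.86 over 12) and Abca7 (0.92, and 0.63 over 12). Notch4 was closest to Vps13b (0.93, but 0.34 over 12) and C2cd2 (0.92, but 0.55 over 12). Jag1 was closest to the chromatin remodeler gene Chd4 (0.95, and 0.90 over 12) and to Dock9 (0.93, but 0.44 over 12). Among the targets, Hey1 was closest to the splicing factor gene Mbnl2 (0.95, and 0.91 over 12) and Ssh1 (0.92, and 0.81 over 12). Heyl was closest to the endothelial scavenger receptor gene Scarf1 (0.93, and 0.87 over 12) and Lrp10 (0.93, but -0.25 over 12). Hey2 was closest to Cfb (0.93, but -0.05 over 12) and Cdk5r1 (0.91, and 0.67 over 12). Hes1 had the least similar neighbours, Kif20b (0.87, but 0.33 over 12) and Uck2 (0.83, but -0.24 over 12). The highest of 14460 values over 11 libraries is high for any gene, so these are descriptions.

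Beyond the 10 genes, 65 other genes of the pathway were listed and 58 were tested. None passed an adjusted p of 0.05 in any comparison (edgeR). The unadjusted counts, higher and lower, are given beside the share of all genes called in either direction. They were 0 and 1 for doxorubicin in A17fl/fl (10.7% of all genes), 3 and 2 for doxorubicin in A17α-MHCKO (6.42%), 0 and 2 for genotype after saline (10.1%), 0 and 2 for genotype after doxorubicin (2.7%) and 0 and 1 for the interaction (5.99%). Over both genotypes doxorubicin gave 3 and 6 (10.7%), and over both treatments genotype gave 0 and 3 (6.65%). In the knockout after doxorubicin, 43 of the 58 had a negative log2 difference from A17fl/fl + DOX, with a median of -0.10 against 0.01 over all genes.

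Subunits of γ-secretase, the protease of the last cut, had doxorubicin differences of opposite sign at an unadjusted p under 0.05. Psen2, a catalytic subunit, differed by -0.45 on the log2 scale over both genotypes (SE 0.12, unadjusted p = 0.00254, adjusted p = 0.301, edgeR), and by -0.50 (SE 0.17, unadjusted p = 0.0116, edgeR) in A17fl/fl. Aph1a, a scaffold subunit, was at 0.27 (SE 0.07, unadjusted p = 0.00251, adjusted p = 0.301, edgeR) over both genotypes and at 0.33 (SE 0.10, unadjusted p = 0.00673) in the knockout. Aph1a read 39.0, 38.0 and 36.0 CPM in A17fl/fl + NS and 43.4, 45.6 and 42.0 in A17fl/fl + DOX, 37.0, 36.2 and 35.2 in A17α-MHCKO + NS and 45.2, 47.1 and 43.5 in A17α-MHCKO + DOX, so that all 6 doxorubicin libraries lay above all 6 saline ones. Aph1a was named for its small p in this comparison, and the share of all genes separated in this way was not counted. The cardiomyocyte markers moved with treatment as well: their sum was 43908 to 47378 CPM in A17fl/fl + DOX against 17918 to 41310 in A17fl/fl + NS, and 40372 to 42463 in A17α-MHCKO + DOX against 28549 to 36062 in A17α-MHCKO + NS. Their part in the doxorubicin values was not tested.

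Of the nuclear components, Maml1, a Mastermind coactivator, was at -0.26 (SE 0.08, unadjusted p = 0.00903, edgeR) for doxorubicin over both genotypes and -0.34 (SE 0.12, unadjusted p = 0.0133) in the knockout. Rbpj itself ran from 30.2 to 43.6 CPM in 11 libraries and was at 66.7 in A17fl/fl + NS replicate 1, with a genotype difference of -0.26 (SE 0.16, unadjusted p = 0.136, edgeR). Hes6, another gene of the Hes family, was at 0.41 (SE 0.17, unadjusted p = 0.0291, edgeR) for doxorubicin in the knockout.

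Of the proteases that act on the receptor, Adam17 was at -0.64 (SE 0.12, unadjusted p = 2.94e-04, adjusted p = 0.446, edgeR) for genotype over both treatments, while Adam10 was at 0.04 (SE 0.13, unadjusted p = 0.763). Adam10 was at 85.8, 62.6 and 55.3 CPM in A17fl/fl + NS, 63.9, 63.5 and 57.3 in A17fl/fl + DOX, 76.6, 75.4 and 72.4 in A17α-MHCKO + NS and 45.1, 65.6 and 66.7 in A17α-MHCKO + DOX, with overlap between genotypes. Furin, which cuts the receptor during its maturation, was at -0.53 (SE 0.17, unadjusted p = 0.00933, edgeR) for genotype over both treatments, and its highest value, 254 CPM, was again in A17fl/fl + NS replicate 1. Pofut1, which adds O-linked fucose to the receptor, had an interaction of -0.49 (SE 0.22, unadjusted p = 0.0472, adjusted p = 0.828, edgeR), the same sign as Heyl.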

How the data were processed

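The deposited table held raw counts per gene and FPKM for 12 libraries from stranded paired-end mRNA sequencing. Per the labels and the study's methods, the authors aligned reads with HISAT2 (the submitters' processing notes also name CASAVA 1.8, SAMtools 1.3.1 and GRCm39), counted with StringTie and tested with edgeR; the authors' FPKM are the counts divided by gene length and library total. Counts were analysed here in R 4.3.3 with edgeR 4.0.16: filterByExpr, TMM, 1 quasi-likelihood model fitting 4 group means, 7 contrasts, two-sided tests, Benjamini-Hochberg adjustment over 16101 genes, common dispersion 0.0842. Log2 CPM used a prior count of 2. Exact permutation tests of mean CPM used scipy 1.17.1. Standard errors were taken from the log2 difference and its F statistic.

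Alternatives were DESeq2 1.42.0, RLE and upper-quartile factors, 2 other count filters, the likelihood ratio test, voom of limma 3.58.1 with library weights, the 2 groups alone, a replicate block and leaving out each of 12 libraries. The members and all gene lists were chosen with earlier results of these data known. All members were named; of the other pathway genes, the 3 with the smallest unadjusted p under 0.05 in each comparison, and Adam17, Adam10 and Rbpj, with 1 item under this rule not reported here; as most alike, 2 genes for each member. Gene symbols came from the table, chromosomes from GENCODE M21, and promoters from RefSeq, where Hes1, Hey1 and Heyl had no entry. In that annotation, exons of Notch1, Notch3 and Dll4 overlap opposite-strand genes with at most 43 counts per library, and exons of Notch2 a same-strand gene with at most 6; whether counting used strand is not given in the sources used here.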

Additional observations from a re-analysis of the deposited data

Results flagged for a closer look

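For Heyl, the doxorubicin effect in A17α-MHCKO minus that in A17fl/fl was -1.01 on the log2 scale (SE 0.30, unadjusted p = 0.00632, edgeR). This interaction failed adjustment over all genes (adjusted p = 0.828, edgeR), so a difference between the genotypes was not shown. An unadjusted p under 0.05 was reached in the interaction by 1 of 10 members and by 5.99% of all tested genes. All 3 doxorubicin libraries of A17fl/fl were above the 3 saline ones, and 2 of 3 in the knockout were below all saline ones. The Heyl interaction kept an unadjusted p under 0.05 in all 20 alternatives that could give it, between -1.18 and -0.76, with adjusted p from 0.181 to 0.984. These alternatives refit the same libraries and are not separate evidence.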

How the results depend on the processing

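No member reached an adjusted p of 0.05 under any alternative. Members with an unadjusted p under 0.05 numbered differently from the reported count as follows. For doxorubicin in A17α-MHCKO they were 2 with DESeq2, with at least 10 counts in every library, with no filter and with the replicate block, and 4 with voom and with the 2 groups alone. For genotype after doxorubicin they were 2 with voom and 3 with the 2 groups alone. For the interaction they were 2 with voom. For doxorubicin over both genotypes they were 1 with DESeq2, RLE factors, at least 10 counts, no filter and voom. For genotype over both treatments they were 1 with voom. Leaving out single libraries gave 0 to 4 for doxorubicin in A17fl/fl, 0 to 4 for doxorubicin in A17α-MHCKO, 1 to 3 for genotype after saline, 0 to 2 for genotype after doxorubicin, 1 to 2 for the interaction, 0 to 4 for doxorubicin over both genotypes and 0 to 5 for genotype over both treatments; A17fl/fl + NS replicate 2 gave the highest count for doxorubicin in A17fl/fl, for genotype after saline and for both comparisons over 2 groups each. Without A17fl/fl + NS replicate 1 the counts were 0, 3, 1, 2, 2, 1 and 1 in that order, without A17fl/fl + NS replicate 2 they were 4, 2, 3, 1, 1, 4 and 5, and without A17fl/fl + NS replicate 3 they were 2, 3, 1, 1, 1, 2 and 1. The count for doxorubicin in A17fl/fl was also 0 without A17fl/fl + DOX replicate 1. That for doxorubicin in A17α-MHCKO was 0 without A17α-MHCKO + NS replicate 3 or A17α-MHCKO + DOX replicate 1, 2 without A17α-MHCKO + NS replicate 2 and 4 without A17α-MHCKO + DOX replicate 2. That for genotype after saline was 2 without A17α-MHCKO + NS replicate 1 or 2. That for genotype after doxorubicin was 0 without A17fl/fl + DOX replicate 1 or 3 or A17α-MHCKO + DOX replicate 1 or 3, and 2 without A17α-MHCKO + DOX replicate 2. Over both genotypes it was 1 without A17α-MHCKO + DOX replicate 2 or 3 and 2 without A17α-MHCKO + NS replicate 2, and over both treatments 1 without these A17α-MHCKO + DOX replicates or A17α-MHCKO + NS replicate 1. Calls over all genes moved as well. For doxorubicin in A17α-MHCKO they went from 1033 of 16101 to 2111 with voom and 1667 of 15422 with the 2 groups alone, and for genotype after doxorubicin from 435 to 1092 and to 1104 of 15351. Without A17fl/fl + NS replicate 2 they were 3422, 1285, 3304, 512, 2345, 2700 and 2218 of 16445 in the order above, against 1721, 1033, 1633, 435, 965, 1717 and 1070. The cause was not tested. The 2 groups alone could give no interaction and no average over both levels.

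Labels do not tie replicate numbers to litters or days, and 3 of 18 same-number pairs had a correlation of deviations over 0.1 (-0.10 to 0.22). With the replicate block, the Notch2 genotype difference after doxorubicin was -0.54 (unadjusted p = 0.0588, edgeR), Heyl took its place under 0.05, and no adjusted call changed.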
